A study of Mus musculus with 15 samples.

Results

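Signaling through the interleukin-6 (IL-6) family was examined in primary mouse articular chondrocytes by way of 10 of the 24134 genes counted. They were taken as a list of gene names, chosen with earlier results of these data known. The list holds 4 cytokine genes (*Il6*, *Lif*, *Il11* and *Clcf1*), 4 receptor genes (*Il6ra*, *Il6st*, *Lifr* and *Osmr*), the transcription factor gene *Stat3* and the feedback inhibitor gene *Socs3*. All 10 were found in the table of the siRNA libraries and in the table of the drug libraries.

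IL-6 family cytokines share the signaling chain gp130, the product of *Il6st*, which joins a second chain such as the IL-6 receptor α chain (*Il6ra*), the LIF receptor (*Lifr*) or the oncostatin M receptor (*Osmr*). The assembled receptor activates JAK kinases, which phosphorylate STAT3, and STAT3 in turn induces *Socs3*, whose protein binds gp130 and JAK and shuts the signal down. In joints, IL-6 is made by chondrocytes as well as by synovial cells during inflammation, and the family is known for inducing acute-phase and matrix-degrading genes there.

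The chondrocytes came from the tibial plateaus and femoral condyles of neonatal ICR mice, were freed by collagenase and grown at passage 0 in DMEM with serum. The siRNA table held 3 libraries of cells transfected with control siRNA (siCtrl) and 3 of cells transfected with siRNAs against *Tnks* and *Tnks2* together (siTnks/2), with no transfection time given. The drug table held 3 libraries each of cells kept for 108 h with DMSO, with 10 μM XAV939 or with 10 μM IWR-1. Tankyrases, the products of *Tnks* and *Tnks2*, are poly(ADP-ribose) polymerases that mark proteins such as axin for degradation, and both compounds block them, XAV939 in the nicotinamide pocket of the catalytic domain and IWR-1 in the neighbouring adenosine pocket. The libraries are labelled as biological replicates, but nothing states which animals each came from, so p-values measure the spread between these libraries.

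Counts on genes ranged from 26857070 to 36615194 per library (median 31046712, 15 libraries). *Tnks* measured 69.0, 58.4 and 70.1 CPM (read count relative to the TMM-scaled library size) in siCtrl replicates 1, 2 and 3 and 19.5, 12.7 and 24.0 CPM in siTnks/2, so the knockdown libraries matched their labels. The summed level of 10 chondrocyte markers ranged from 87528 to 116965 CPM in siCtrl and from 124614 to 202049 CPM in siTnks/2, but from 27519 to 37172 CPM in DMSO, from 37807 to 57367 CPM in XAV939 and from 91108 to 115781 CPM in IWR-1. In the same drug groups, 8 fibroblast markers summed to 9385 to 12332 CPM, 4422 to 6559 CPM and 3348 to 5782 CPM. They summed to 3347 to 5659 CPM in siCtrl and 1632 to 4548 CPM in siTnks/2. All 10 chondrocyte markers were higher under IWR-1 than under DMSO at an adjusted p-value under 0.05, where 16.2% of all tested genes were higher. Under XAV939 3 were higher, against 7.57% of all tested genes, and with knockdown 3 were, against 10.4%. With the replicate number as a block, 9 of the 10 were higher under XAV939 (16% of all genes) and 8 with knockdown (18.1%). DESeq2 called 6 higher under XAV939 and 8 with knockdown, and its share of all genes was not counted. Without the block, 5 of the 8 fibroblast markers were lower with each drug, against 9.85% of all genes under XAV939 and 20.2% under IWR-1. In bulk RNA, fewer cells of a type and less RNA per cell cannot be told apart.

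The control levels of *Il6*, *Lif*, *Il11* and *Socs3* differed most between the tables, with the DMSO libraries higher. Per kilobase of exon, siCtrl cells had *Il6st* (35.2 ± 6.67 CPM per kilobase, SD, n = 3) as the highest member, followed by *Stat3* (19.2 ± 0.271), *Socs3* (11.4 ± 3.13) and *Osmr* (10.9 ± 1.07). *Lifr*, *Clcf1*, *Lif*, *Il11* and *Il6ra* ranged from 2.18 down to 1.01 CPM per kilobase on average, and *Il6* was last at 0.0237. In this order *Socs3* overlapped *Osmr*, *Lifr* overlapped *Clcf1*, *Clcf1* overlapped *Lif* and *Lif* overlapped *Il11*. In DMSO cells *Il6st* (55.5 ± 17.6), *Socs3* (51.3 ± 3.61) and *Il6* (50.2 ± 10.7 CPM per kilobase) stood at the top and overlapped in turn. There *Stat3* (27.9 ± 2.87) and *Osmr* (24.4 ± 2.45) overlapped, as did *Lif* (16.9 ± 4.38) and *Il11* (12.2 ± 3.88), and *Il6ra* was last at 0.878 ± 0.269. *Il6* had 5 counts over the 3 siCtrl libraries and 12001 over the 3 DMSO libraries, a ratio of 2228 after scaling (exact interval 954 to 6863 for counting error only). The tables were scaled separately, and the kind of treatment, the culture and the table cannot be told apart in any such comparison.

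**Figure D1:**
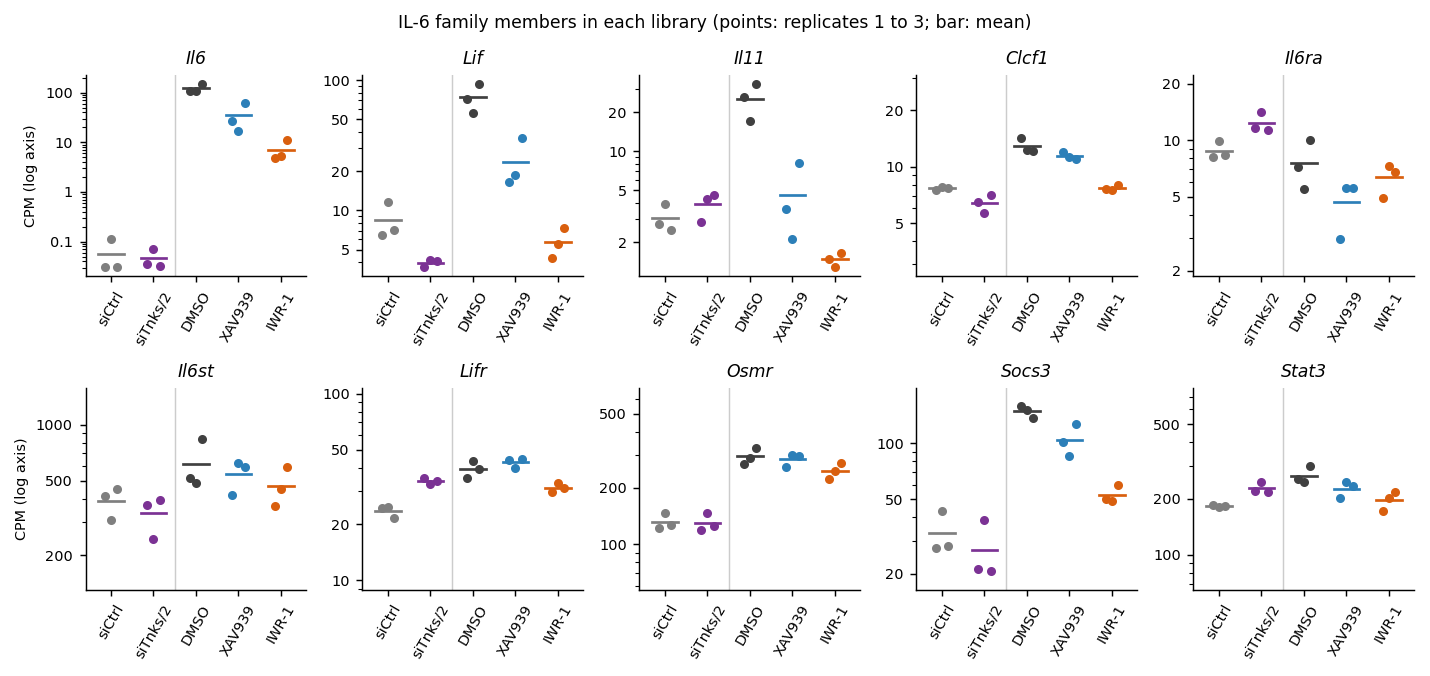
CPM (log axis) of the 10 members in each of the 15 libraries, with points for replicates 1 to 3 from left to right, bars for the mean of 3, and a grey line between the siRNA table and the drug table. *Il6* lies at or below 0.111 CPM in all 6 siRNA libraries and between 4.74 and 151.6 CPM in the 9 drug libraries.

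Treatment under IWR-1 lowered all 4 cytokine genes together with *Socs3*, *Stat3* and *Lifr*, and XAV939 lowered *Il6*, *Lif*, *Il11* and *Socs3*. Knockdown of both tankyrases lowered *Lif* and raised *Il6ra*, *Lifr* and *Stat3*. By edgeR's quasi-likelihood test (Benjamini-Hochberg adjusted p-value under 0.05 over all genes), 7 of 10 members were lower under IWR-1, where 20.2% of all tested genes were lower and 16.2% higher. With XAV939, 4 of 10 were lower, against 9.85% of all genes lower and 7.57% higher. No member was called higher with either drug by edgeR, at an unadjusted p-value under 0.05 or by DESeq2. With knockdown, 1 of 9 tested members was lower and 3 were higher, against 7.61% and 10.4% of all genes. The median log2 fold change of the members was −0.58 under IWR-1, −0.37 under XAV939 and −0.01 with knockdown, beside medians of 0.01, 0.02 and −0.00115 over all genes tested. Treated and control libraries did not overlap, with the treated ones lower, for 7 members under IWR-1 (26.4% of all genes), for 6 under XAV939 (16.8%) and for 2 of 9 with knockdown (22.2%), and 3 of 9 were higher without overlap with knockdown (21.6%). XAV939 and IWR-1 were compared with the same DMSO libraries.

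**Figure D2:**
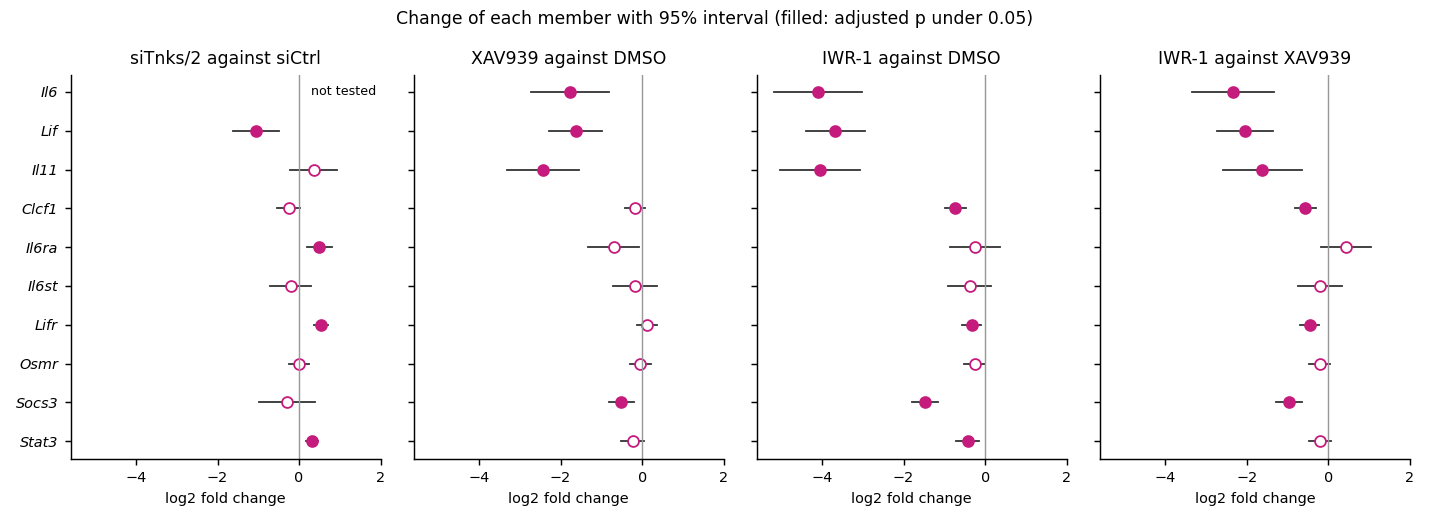
Log2 fold change (horizontal axis) of each member in the 3 comparisons with a control and in the direct comparison of the inhibitors, with 95% confidence intervals from edgeR and filled circles at an adjusted p-value under 0.05. *Il6*, *Lif* and *Il11* lie between −4.11 and −3.68 under IWR-1 and between −2.43 and −1.63 under XAV939, and *Il6* was not tested with knockdown.

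The members that fell with both drugs, *Il6*, *Lif*, *Il11* and *Socs3*, are shown by the 250 bases before their transcription start in RefSeq (build GRCm38.p6), with motif matches in capitals. The motifs searched on both strands were TTCNNNGAA (bound by STAT proteins), TGANTCA (AP-1), TGACGTCA (CREB), the NF-κB site type of *Il6* and TTGCNNAA (C/EBP). They occurred in 7.02%, 6.75%, 1.55%, 0.356% and 9.56% of 32851 windows of the same length.
*Il6*, chr5:30012864-30013113, plus strand: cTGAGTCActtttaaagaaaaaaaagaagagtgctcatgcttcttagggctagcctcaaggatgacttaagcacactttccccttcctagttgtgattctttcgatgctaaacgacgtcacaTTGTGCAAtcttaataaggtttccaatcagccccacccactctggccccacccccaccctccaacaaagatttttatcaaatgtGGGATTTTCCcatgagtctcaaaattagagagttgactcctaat
*Lif*, chr11:4257318-4257567, plus strand: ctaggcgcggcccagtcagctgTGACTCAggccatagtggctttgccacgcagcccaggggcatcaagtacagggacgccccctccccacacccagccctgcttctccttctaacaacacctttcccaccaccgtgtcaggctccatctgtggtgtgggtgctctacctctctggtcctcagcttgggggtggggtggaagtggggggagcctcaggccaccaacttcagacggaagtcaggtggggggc
*Il11*, second start, chr7:4778142-4778391, minus strand: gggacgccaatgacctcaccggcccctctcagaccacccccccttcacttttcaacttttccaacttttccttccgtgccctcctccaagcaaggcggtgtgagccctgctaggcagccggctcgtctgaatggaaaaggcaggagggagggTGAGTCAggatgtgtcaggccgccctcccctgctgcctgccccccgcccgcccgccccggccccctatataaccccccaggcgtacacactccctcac
*Socs3*, chr11:117969367-117969616, minus strand: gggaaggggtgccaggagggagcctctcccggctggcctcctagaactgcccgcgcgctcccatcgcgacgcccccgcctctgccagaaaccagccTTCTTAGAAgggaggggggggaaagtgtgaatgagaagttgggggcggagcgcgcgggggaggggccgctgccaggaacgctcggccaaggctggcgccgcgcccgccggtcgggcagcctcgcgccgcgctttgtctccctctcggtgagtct

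The *Il6* window held an AP-1 match 249 bases, a C/EBP match 128 bases and an NF-κB match 44 bases before the start. The NF-κB pattern was of the *Il6* type, so its match in this window was known in advance. *Lif* had an AP-1 match at 228 bases and the second start of *Il11* one at 98 bases, while *Socs3* held a STAT match at 154 bases. The windows of *Il6ra*, *Il6st*, *Lifr*, *Osmr*, *Stat3* and the first start of *Il11* held 0 matches, and no window was found for *Clcf1*. A match gives only the letters in this window.

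*Il6* encodes the founding cytokine of the family. In the siRNA table it had 1, 3 and 1 counts in siCtrl and 1, 2 and 1 in siTnks/2, too few to be tested, so no change with knockdown is given. *Il6* has gene ID 16193 and lies on mm10 chromosome 5 from 30013114 to 30019981. In the drug table its level was 106.6, 107.1 and 151.6 CPM in DMSO replicates 1, 2 and 3. It measured 27.3, 16.8 and 62.9 CPM under XAV939 and 4.74, 5.26 and 11.02 CPM under IWR-1. The 3 groups did not overlap, and replicate 3 was the highest library in each. *Il6* was 3.41-fold lower under XAV939 (log2 −1.77, SE 0.44, adjusted p = 0.0186) and 17.2-fold lower under IWR-1 (log2 −4.11, SE 0.49, adjusted p = 9.47e-05). The call under XAV939 was lost without XAV939 replicate 1 (−1.61, adjusted p = 0.0691) or replicate 2 (−1.43, adjusted p = 0.0559), and it was kept with the replicate number as a block (adjusted p = 2.87e-05). The 10 leukocyte markers together measured 9.65 to 12.2 CPM in siCtrl and 8.64 to 10.2 CPM in siTnks/2. In the drug table they measured 35.6 to 44.9 CPM in DMSO, 32.0 to 38.9 CPM in XAV939 and 14.6 to 20.5 CPM in IWR-1. Of the 5 that could be tested, *Cd14*, *Cd68* and *Csf1r* were lower under IWR-1, against 20.2% of all genes. *Cd14* alone measured 23.6, 30.7 and 27.97 CPM in DMSO and 7.73, 8.18 and 11.02 CPM in IWR-1, so the sum mostly followed this gene. *Cd14* is also on the paper's list of cartilage-signature genes, so it does not mark leukocytes alone. The defining leukocyte gene *Ptprc* had at most 5 counts in any library, and the T cell gene *Cd3e* was at 0 in all but 1. Other markers were detected, with *Cd68* at 240, 292 and 323 counts in DMSO and 138, 124 and 162 in IWR-1. *Csf1r* had 31, 41 and 30 counts in DMSO and 11, 9 and 23 in IWR-1. *Lyz2* had 101, 137 and 115 counts in DMSO and 78, 102 and 120 in IWR-1. The part of leukocytes, and of the fibroblast and chondrocyte markers given above, in the changes of *Il6* and of the other members under the drugs was not tested.

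*Lif* encodes leukemia inhibitory factor, which signals through LIFR and gp130, and it was called lower in all 3 comparisons with a control. *Clcf1* was also lower in all 3 but was called only under IWR-1, and *Il6* was not tested with knockdown. *Lif* (gene ID 16878, chromosome 11, 4257557 to 4272514) was at 6.47, 11.6 and 7.07 CPM in siCtrl and 3.68, 4.17 and 4.08 CPM in siTnks/2. In the drug table it measured 71.1, 55.9 and 93.8 CPM under DMSO, 16.5, 18.8 and 35.8 CPM under XAV939 and 4.30, 5.52 and 7.28 CPM under IWR-1. Every treated library lay below every control library of its table. The fold was 2.09 lower with knockdown (log2 −1.06, SE 0.24, adjusted p = 0.026), 3.10 lower under XAV939 (log2 −1.63, SE 0.30, adjusted p = 0.00421) and 12.8 lower under IWR-1 (log2 −3.68, SE 0.33, adjusted p = 1.72e-05). The knockdown call was lost without siTnks/2 replicate 1 (−1.01, adjusted p = 0.089), siTnks/2 replicate 3 (−1.08, adjusted p = 0.054) or siCtrl replicate 3 (−1.17, adjusted p = 0.0595). Within libraries of the same number, the log2 difference with knockdown was −0.81, −1.48 and −0.79.

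*Il11* encodes interleukin-11, a gp130 cytokine with its own receptor chain. It (gene ID 16156, chromosome 7, 4772373 to 4782859) was at 2.74, 3.95 and 2.48 CPM in siCtrl and 2.88, 4.31 and 4.57 CPM in siTnks/2, which overlapped. The log2 fold change with knockdown was 0.36 (SE 0.25, adjusted p = 0.341), with a 95% interval from −0.23 to 0.94. With DMSO *Il11* measured 26.0, 16.9 and 33.0 CPM, under XAV939 3.61, 2.10 and 8.15 CPM, and under IWR-1 1.48, 1.28 and 1.65 CPM. The 3 drug groups did not overlap, and the IWR-1 libraries lay close together at the bottom. *Il11* was 5.39-fold lower under XAV939 (log2 −2.43, SE 0.40, adjusted p = 0.00243) and 16.5-fold lower under IWR-1 (log2 −4.05, SE 0.44, adjusted p = 5.74e-05).

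*Clcf1* encodes cardiotrophin-like cytokine factor 1, which acts through the CNTF receptor. It (gene ID 56708, chromosome 19, 4214238 to 4223490) shares its span with another coding gene model on the same strand, AC109138.7, so reads may have been shared or dropped. *Clcf1* measured 7.53, 7.83 and 7.68 CPM in siCtrl and 6.45, 5.67 and 7.08 CPM in siTnks/2. In the drug table the values were 14.2, 12.3 and 12.1 CPM under DMSO, 11.99, 11.3 and 10.99 CPM under XAV939 and 7.56, 7.54 and 8.03 CPM under IWR-1. All treated libraries were below their controls, by a small margin with knockdown and XAV939. Only the IWR-1 change among these 3 passed the test (log2 −0.74, SE 0.12, adjusted p = 0.000567, 1.67-fold lower), while knockdown gave −0.26 (SE 0.12, adjusted p = 0.163) and XAV939 −0.17 (SE 0.11, adjusted p = 0.328).

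**Figure D3:**
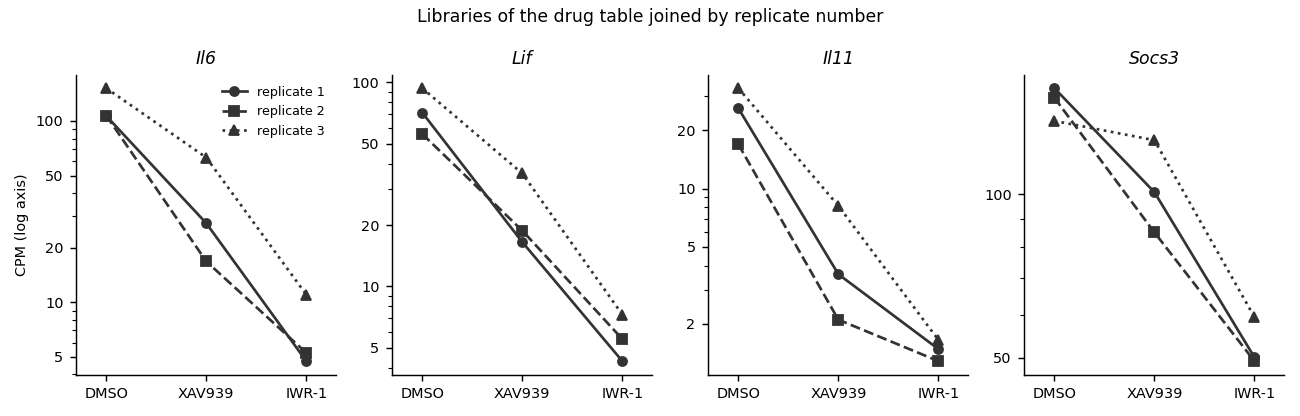
CPM (log axis) of *Il6*, *Lif*, *Il11* and *Socs3* in the 9 drug libraries, with lines joining libraries that carry the same replicate number. Each of the 12 lines falls from DMSO to XAV939 and again from XAV939 to IWR-1, with the least drop for *Socs3* of replicate 3 between DMSO and XAV939 (136.7 to 125.9 CPM).

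Among the receptor genes, knockdown raised *Il6ra* and *Lifr*, and IWR-1 lowered *Lifr*. *Lifr*, the LIF receptor chain (gene ID 16880, chromosome 15, 7090614 to 7197489), was at 24.3, 24.6 and 21.5 CPM in siCtrl and 35.4, 32.9 and 33.9 CPM in siTnks/2. With DMSO it measured 35.2, 43.8 and 39.3 CPM, under XAV939 44.2, 39.8 and 44.5 CPM and under IWR-1 29.6, 33.2 and 31.1 CPM. Knockdown libraries were all above and IWR-1 libraries all below their controls, and XAV939 overlapped DMSO. The fitted log2 change was 0.53 with knockdown (SE 0.08, adjusted p = 0.00809) and −0.33 under IWR-1 (SE 0.11, adjusted p = 0.0327), while XAV939 gave 0.12 (SE 0.11, adjusted p = 0.469). The knockdown call held without any 1 library (adjusted p up to 0.0402). The IWR-1 call was lost without DMSO replicate 2 or IWR-1 replicate 1, 2 or 3 (log2 −0.38 to −0.25, adjusted p 0.0589 to 0.118).

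*Il6ra* encodes the chain that binds IL-6 itself. It (gene ID 16194, chromosome 3, 89864059 to 89913196) was at 8.09, 9.87 and 8.36 CPM in siCtrl and 11.6, 14.2 and 11.3 CPM in siTnks/2. With DMSO it measured 7.17, 5.50 and 10.1 CPM, under XAV939 2.96, 5.55 and 5.52 CPM and under IWR-1 4.88, 7.32 and 6.78 CPM. Only the siRNA groups stood apart. Knockdown gave a log2 change of 0.49 (SE 0.13, adjusted p = 0.0439), and the call was lost without any 1 of the 6 siRNA libraries (log2 0.39 to 0.59, adjusted p 0.0521 to 0.151). XAV939 gave −0.70 (SE 0.28, adjusted p = 0.114) and, with the replicate block, −0.72 (adjusted p = 0.021). IWR-1 gave −0.26 (SE 0.28, adjusted p = 0.507). An antisense gene model, Gm42809, overlaps *Il6ra*, and the strand setting of the counting is not given in the sources used here.

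*Il6st*, the gene of the shared chain gp130 (gene ID 16195, chromosome 13, 112464070 to 112510086), was abundant in every library. It measured 413, 308 and 452 CPM in siCtrl and 373, 245 and 396 CPM in siTnks/2. With DMSO it measured 519, 487 and 840.2 CPM, under XAV939 417, 621 and 595 CPM and under IWR-1 367, 455 and 594 CPM. All groups overlapped their controls, and DMSO replicate 3 was the highest library. The fitted log2 change was −0.21 (SE 0.21, adjusted p = 0.51) with knockdown, −0.18 (SE 0.24, adjusted p = 0.652) under XAV939 and −0.38 (SE 0.24, adjusted p = 0.252) under IWR-1. With the replicate block, knockdown (−0.22, adjusted p = 0.0317) and IWR-1 (−0.38, adjusted p = 0.0376) passed the test, and the same-number differences were all below 0 in both.

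*Osmr*, the receptor chain for oncostatin M (gene ID 18414, chromosome 15, 6813577 to 6874969), was called in none of the 3 comparisons with a control. It measured 122, 146 and 126 CPM in siCtrl and 119.8, 147 and 125 CPM in siTnks/2. With DMSO it measured 269, 289 and 328 CPM, under XAV939 259, 298 and 297 CPM and under IWR-1 223, 246 and 270.2 CPM. The siRNA groups nearly coincided, and 1 IWR-1 library reached into the DMSO range. The fitted log2 change was −0.01 (SE 0.10) with knockdown, with a 95% interval from −0.25 to 0.23, and −0.05 (SE 0.12) under XAV939, with an interval from −0.31 to 0.21. IWR-1 gave −0.26 (SE 0.12, adjusted p = 0.107) and passed the test with the replicate block (adjusted p = 0.0222). Members lower under the block numbered 9 of 10 under IWR-1 (25.3% of all genes), 5 of 10 under XAV939 (17.4%) and 3 of 9 with knockdown (16.5%).

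*Socs3*, the gp130 feedback inhibitor and a direct STAT3 target, fell with both drugs. It (gene ID 12702, chromosome 11, 117966079 to 117970047) was at 157, 151 and 137 CPM under DMSO, 101, 85.1 and 126 CPM under XAV939 and 50.1, 49.3 and 59.4 CPM under IWR-1. In the siRNA table it measured 27.4, 43.4 and 28.1 CPM in siCtrl and 21.2, 38.8 and 20.7 CPM in siTnks/2. The drug groups did not overlap, whereas in the siRNA table replicate 2 was the highest library of each group and the groups overlapped. *Socs3* was 2.80-fold lower under IWR-1 (log2 −1.48, SE 0.15, adjusted p = 2.80e-05) and 1.42-fold lower under XAV939 (log2 −0.51, SE 0.14, adjusted p = 0.0323). The XAV939 call was lost in a fit of only the XAV939 and DMSO libraries (−0.53, adjusted p = 0.0595) and without DMSO replicate 1 or 2, XAV939 replicate 1 or 2 or IWR-1 replicate 2 (−0.51 to −0.38, adjusted p 0.0518 to 0.113). Knockdown gave −0.29 (SE 0.29, adjusted p = 0.508) and, with the replicate block, −0.32 (adjusted p = 0.0223).

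*Stat3*, the transcription factor of the pathway, rose with knockdown and fell under IWR-1. It (gene ID 20848, chromosome 11, 100885098 to 100939540, in a span that *Stat5a* on the other strand overlaps) was at 186, 181 and 183 CPM in siCtrl and 219.9, 246 and 218 CPM in siTnks/2. With DMSO it measured 254, 247 and 297 CPM, under XAV939 202, 245 and 232 CPM and under IWR-1 172, 201 and 218 CPM. The knockdown libraries lay above, and the libraries of both drugs below, every control library. The fitted log2 change was 0.32 with knockdown (SE 0.07, adjusted p = 0.0217), −0.23 under XAV939 (SE 0.13, adjusted p = 0.228) and −0.43 under IWR-1 (SE 0.13, adjusted p = 0.0199). The knockdown call was lost without siCtrl replicate 1, 2 or 3 or siTnks/2 replicate 1 (0.31 to 0.34, adjusted p 0.0601 to 0.0876), and the IWR-1 call without IWR-1 replicate 1 or 2 or DMSO replicate 3 (−0.45 to −0.35, adjusted p 0.0564 to 0.0924). These values are mRNA levels and do not measure STAT3 phosphorylation.

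The inhibitors were compared directly at the same dose and time, in all 10 members, with p-values adjusted over all genes tested. IWR-1 gave lower levels than XAV939 for 6 of 10 members, against 10.2% of all genes lower. *Il6* was 5.05-fold lower (log2 −2.34, SE 0.46, adjusted p = 0.00603), *Lif* 4.12-fold (log2 −2.04, SE 0.32, adjusted p = 0.00165) and *Il11* 3.06-fold (log2 −1.62, SE 0.44, adjusted p = 0.0271). On the log2 scale, *Socs3* differed by −0.97 (SE 0.14, adjusted p = 0.00136), *Clcf1* by −0.57 (SE 0.12, adjusted p = 0.00739) and *Lifr* by −0.45 (SE 0.11, adjusted p = 0.0153). For these 6 genes every IWR-1 library lay below every XAV939 library, and the share of all genes that did so was not counted. No difference was shown for the other 4, with 95% intervals from −0.19 to 1.06 for *Il6ra*, −0.74 to 0.33 for *Il6st*, −0.47 to 0.05 for *Osmr* and −0.48 to 0.08 for *Stat3*. The *Il11* call was lost without IWR-1 replicate 1, 2 or 3 or XAV939 replicate 3 (−1.70 to −0.94, adjusted p 0.0594 to 0.0992), and the *Lifr* call without XAV939 replicate 1 or IWR-1 replicate 1 or 3 (−0.45 to −0.40, adjusted p 0.052 to 0.0752).

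The effect of each drug was also compared with that of knockdown by an interaction term over all 15 libraries, without *Il6*, which had too few counts in the siRNA table. The IWR-1 effect was lower than the knockdown effect for 6 of 9 members (13.9% of all genes), *Il11* (difference of log2 fold changes −4.42), *Lif* (−2.63), *Socs3* (−1.20), *Lifr* (−0.88), *Stat3* (−0.76) and *Clcf1* (−0.49). The XAV939 effect was lower for 4 of 9 (8.07%), *Il11* (−2.81), *Il6ra* (−1.21), *Stat3* (−0.56) and *Lifr* (−0.43). For *Lif*, XAV939 and knockdown differed by −0.59 (SE 0.44, 95% interval −1.52 to 0.34, adjusted p = 0.392), and with the replicate block by −0.67 (adjusted p = 0.0486). *Stat3* and *Lifr* had opposite signs with knockdown and under IWR-1. The kind of treatment and the table cannot be told apart here.

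Among 68 other genes of the pathway, 62 were tested in the drug table and 61 in the siRNA table. IWR-1 lowered 25 and raised 7, XAV939 lowered 6 and raised 3, and knockdown lowered 4 and raised 6. The shares of all genes lower and higher were 20.2% and 16.2% for IWR-1, 9.85% and 7.57% for XAV939 and 7.61% and 10.4% for knockdown, so the counts for XAV939 and knockdown lay near the background. With the replicate block, IWR-1 lowered 29 and raised 7 (25.3% and 22.2% of all genes), XAV939 lowered 15 and raised 8 (17.4% and 16%), and knockdown lowered 11 and raised 15 (16.5% and 18.1%). Of 8 other cytokine genes, 3 had enough counts to be tested in the drug table and 2 in the siRNA table, and edgeR called 0 of them in each comparison, as did DESeq2 and an unadjusted p-value under 0.05, while the replicate block called 1 higher with knockdown. On a list of 4 other receptor genes and the sheddase genes *Adam10* and *Adam17*, *Cntfr*, the CNTF receptor chain used by CLCF1, fell under XAV939 (log2 −1.78, SE 0.31, adjusted p = 0.00303) and under IWR-1 (−1.38, SE 0.29, adjusted p = 0.00375). It had 36, 37 and 17 counts in DMSO, 7 in each XAV939 library and 10, 10 and 11 in IWR-1, so its level was low throughout. *Adam17*, whose product cleaves the IL-6 receptor from the cell surface, fell under IWR-1 (−0.34, SE 0.10, adjusted p = 0.0263), a call lost without DMSO replicate 1 or 3 or IWR-1 replicate 1 or 2 (−0.37 to −0.25, adjusted p 0.055 to 0.0983).

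The list of 12 kinases, adaptors and other STATs moved in both directions. The shares of all genes higher and lower were 7.57% and 9.85% for XAV939, 16.2% and 20.2% for IWR-1 and 10.4% and 7.61% for knockdown. Under XAV939 3 genes of this list rose and none fell, among them *Stat5a* (0.41, adjusted p = 0.047) and *Jak3* (0.40, adjusted p = 0.0307). *Stat5a* lost this call without any 1 drug library other than XAV939 replicate 1 (adjusted p up to 0.13), and *Jak3* without any 1 other than DMSO replicate 3 and XAV939 replicate 3 (adjusted p up to 0.113). With IWR-1 4 genes of this list rose, among them *Jak2* (0.52, adjusted p = 0.00933), and 2 fell, among them *Jak1* (−0.49, adjusted p = 0.0148), the main kinase of gp130. Knockdown raised *Stat5a* (0.37, adjusted p = 0.0172), *Stat5b* (0.35, adjusted p = 0.0136) and *Jak2* (0.34, adjusted p = 0.0492), and with the replicate block 5 genes of this list were higher (18.1% of all genes). *Stat5a* and *Stat5b* lost the knockdown call without any 1 siCtrl library or siTnks/2 replicate 1 (adjusted p up to 0.0794 and 0.0657), and *Jak2* without any 1 of the 6 siRNA libraries (adjusted p up to 0.162). The IWR-1 call of *Jak1* was lost without IWR-1 replicate 1 or 2 (adjusted p up to 0.0689). Of 14 inhibitors, *Socs2*, which restrains growth hormone signaling, measured 3.35, 5.70 and 4.71 CPM under DMSO and 17.4, 23.4 and 16.1 CPM under IWR-1, a rise of 2.03 on the log2 scale (SE 0.21, adjusted p = 3.31e-05) opposite to *Socs3*. *Cish*, a STAT5-induced inhibitor, fell under IWR-1 (−1.43, SE 0.17, adjusted p = 0.000107), as did the phosphatase gene *Ptpn1* (−0.80, SE 0.12, adjusted p = 0.000413). Knockdown raised *Socs2* by 0.46 (adjusted p = 0.0488), a call lost without any 1 siCtrl library or siTnks/2 replicate 1 or 2 (adjusted p up to 0.149). XAV939 changed 0 of the 14 by edgeR and by DESeq2, with 3 at an unadjusted p-value under 0.05 and 2 higher with the replicate block (16% of all genes).

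Known STAT3 target genes fell under IWR-1 in 12 of 20 cases and rose in 2, with a median log2 fold change of −0.70, where 20.2% of all genes were lower and 16.2% higher. The acute-phase gene *Saa3* measured 20383, 23934 and 12549 CPM under DMSO and 1429.8, 1959 and 1194 CPM under IWR-1. Haptoglobin (*Hp*) measured 766, 907 and 570.3 CPM under DMSO and 103, 120.2 and 129.7 CPM under IWR-1. No IWR-1 library reached the DMSO range for either gene, with log2 fold changes of −3.63 (SE 0.33, adjusted p = 1.77e-05) and −2.67 (SE 0.19, adjusted p = 5.03e-06), and the chemokine gene *Ccl2* fell by 2.72 (SE 0.15, adjusted p = 1.31e-06). These genes also respond to NF-κB and C/EBP factors. Under XAV939 3 of 20 fell (9.85% of all genes) and, with the replicate block, 7 (17.4%). The 3 were *Pim1* (−0.94, adjusted p = 0.0121), *Ccl2* (−0.82, adjusted p = 0.00267) and *Il4ra* (−0.69, adjusted p = 0.0284). *Pim1* lost this call without XAV939 replicate 2 (adjusted p = 0.0506), and *Il4ra* without DMSO replicate 1 or 3 or XAV939 replicate 1 or 2 (adjusted p up to 0.1). With knockdown 2 rose and 3 fell (10.4% and 7.61% of all genes), and 5 rose and 5 fell with the replicate block (18.1% and 16.5%). *Hp* rose with knockdown by 1.69 (SE 0.23, adjusted p = 0.00773), from 1.15, 1.44 and 1.01 CPM to 4.03, 4.96 and 3.07 CPM, opposite to its change under IWR-1 and from a level far below that of the drug table. *Saa3* rose by 1.19 (adjusted p = 0.0449) and *Myc* fell by 0.75 (adjusted p = 0.0329) with knockdown, and both lost the call without any 1 siCtrl library or siTnks/2 replicate 1, as *Saa3* did without siTnks/2 replicate 2 (adjusted p up to 0.14 for *Saa3* and 0.09 for *Myc*).

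Of 8 regulators of the *Il6* transcript, 6 fell under IWR-1, 2 under XAV939 and 1 with knockdown, against 20.2%, 9.85% and 7.61% of all genes. With the replicate block 6 were lower under XAV939 (17.4% of all genes) and 3 with knockdown (16.5%). *Nfkbiz*, which encodes IκBζ, a nuclear factor needed to induce *Il6*, measured 320.3, 279 and 334 CPM under DMSO, 196, 212 and 235 CPM under XAV939 and 87.6, 91.4 and 110.03 CPM under IWR-1. The groups did not overlap, with log2 fold changes of −0.54 (SE 0.12, adjusted p = 0.0129) under XAV939 and −1.69 (SE 0.13, adjusted p = 5.84e-06) under IWR-1. *Zc3h12a*, whose product regnase-1 degrades *Il6* mRNA, also fell under IWR-1 (−1.65, SE 0.11, adjusted p = 2.99e-06) and with knockdown (−0.74, SE 0.14, adjusted p = 0.0165). *Zfp36*, the gene of the mRNA-destabilizing protein tristetraprolin, fell under XAV939 (−0.76, SE 0.14, adjusted p = 0.00401), and *Zfp36l1* fell under IWR-1 (−1.37, SE 0.16, adjusted p = 8.68e-05). The XAV939 call of *Nfkbiz* was lost without DMSO replicate 1 or XAV939 replicate 1 (adjusted p up to 0.0552), and the knockdown call of *Zc3h12a* without siCtrl replicate 2 or 3 or siTnks/2 replicate 1 (adjusted p up to 0.0696). The list holds genes that raise and genes that lower *Il6* mRNA, and both kinds fell under IWR-1.

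**Figure D4:**
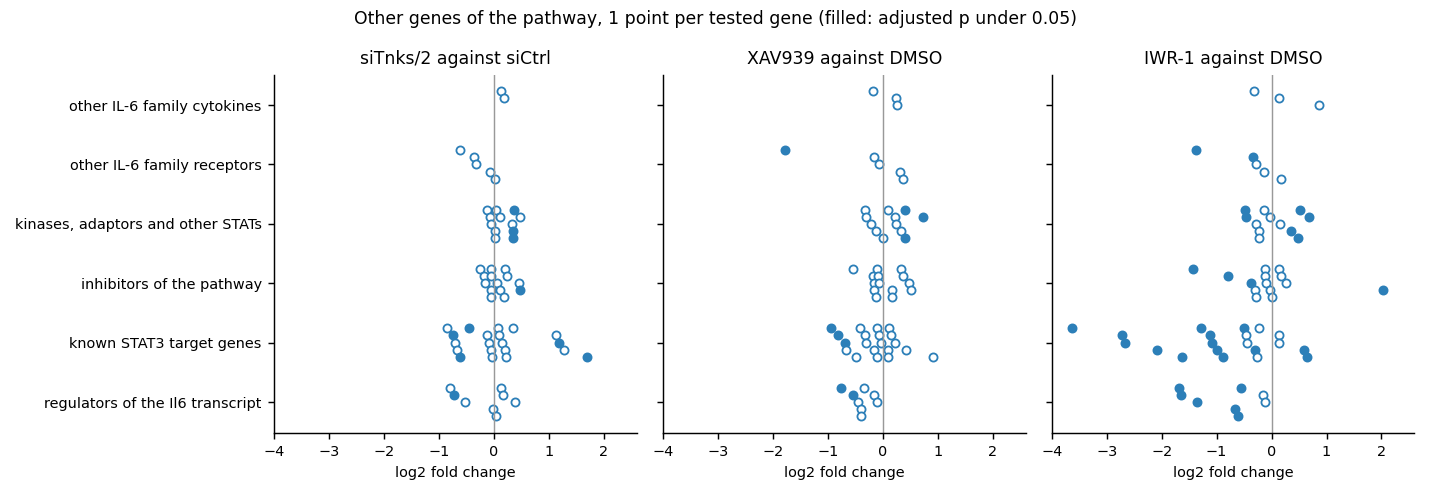
Log2 fold change (horizontal axis) of each tested gene on the 6 lists of other pathway genes, by comparison with the control, with filled points at an adjusted p-value under 0.05. With IWR-1 25 of the 62 genes are filled points left of 0 and 7 right of it, and *Saa3* at −3.63 is the leftmost.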

How the data were processed

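RNA from mouse articular chondrocytes was sequenced in 15 poly(A) libraries (TruSeq Stranded mRNA). The submitters' processing notes name Trimmomatic 0.32, TopHat2 2.0.13, HTSeq 0.6.1p1 and mm10, and the annotation and strand setting of the counting are not given in the sources used here. The authors deposited unnormalized read counts per gene in an siRNA table of 6 libraries and a drug table of 9. RefSeq (GRCm38.p6) gave symbols for 24051 of 24134 gene IDs, and exon lengths and positions came from GENCODE M21.

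Each table was fitted by itself with edgeR 4.0.16 in R 4.3.3 (TMM scaling, filterByExpr, prior count 2, two-sided quasi-likelihood F test, Benjamini-Hochberg over all tested genes), and drug and knockdown effects were compared by interaction contrasts in a fit of all 15 libraries. DESeq2 1.42.0, other scalings and filters, a replicate block and fits without each library were alternatives, and the steps were tested on simulated data. Same-numbered libraries deviated together from their group means (correlations 0.424 to 0.519 over 3 siRNA pairs and 0.143 to 0.553 over 9 drug pairs). Differently numbered siRNA libraries reached at most 0.0972. Differently numbered drug libraries reached 0.318, above the weakest same-numbered drug pair, so the evidence for pairing was less clear there. The replicate numbers of the labels were read as pairing the libraries only in the fits with the block, and the main fits left this pairing out. The 10 members and the gene lists were chosen with earlier results of these data known. The text names the members, *Tnks* and *Tnks2*, and from each list and comparison with a control the 3 called genes with the largest change, while the marker genes were named after their values were seen and some genes under this rule are not reported here. Intervals on counts cover counting error only.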

Additional observations from a re-analysis of the deposited data

Results flagged for a closer look

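The interaction test over all 15 libraries found 10 differences between a drug effect and the knockdown effect on a member, each at an adjusted p-value under 0.05 (edgeR, Benjamini-Hochberg over all genes). Each is the log2 fold change with the drug minus that with knockdown.

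For the cytokine genes, *Il11* differed by −4.42 with IWR-1 (SE 0.56, adjusted p = 7.53e-05) and by −2.81 with XAV939 (SE 0.54, adjusted p = 0.00416). *Lif* differed by −2.63 with IWR-1 (SE 0.44, adjusted p = 0.000674) and *Clcf1* by −0.49 (SE 0.16, adjusted p = 0.0355). The *Clcf1* call was lost without siCtrl replicate 1, 2 or 3, siTnks/2 replicate 1 or 3, DMSO replicate 1 or IWR-1 replicate 1 or 2 (−0.50 to −0.41, adjusted p 0.0565 to 0.0916).

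For the receptor genes, *Lifr* differed by −0.88 with IWR-1 (SE 0.13, adjusted p = 0.000325) and by −0.43 with XAV939 (SE 0.13, adjusted p = 0.0466), and *Il6ra* by −1.21 with XAV939 (SE 0.35, adjusted p = 0.0365). The *Lifr* call with XAV939 was lost without any 1 library other than DMSO replicate 1 and XAV939 replicate 3 (−0.46 to −0.35, adjusted p 0.057 to 0.117). The *Il6ra* call was lost without siCtrl replicate 1 or 3, siTnks/2 replicate 1 or 2, DMSO replicate 1 or 3, XAV939 replicate 1 or IWR-1 replicate 2 (−1.24 to −0.94, adjusted p 0.0501 to 0.0842).

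*Stat3* differed by −0.76 with IWR-1 (SE 0.16, adjusted p = 0.00283) and by −0.56 with XAV939 (SE 0.16, adjusted p = 0.0295), and *Socs3* by −1.20 with IWR-1 (SE 0.32, adjusted p = 0.014). The *Stat3* call with XAV939 was lost without siCtrl replicate 1, 2 or 3, siTnks/2 replicate 1 or 2, XAV939 replicate 1 or DMSO replicate 3 (−0.58 to −0.47, adjusted p 0.0526 to 0.0769). The kind of treatment and the table cannot be told apart in these differences.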

How the results depend on the processing

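Of 966 values recomputed for 57 results under the alternatives, 864 kept direction and side of the threshold, 76 lost a call, 7 gained one and 19 changed sign, and DESeq2 and RLE size factors changed 0 of the 57 calls each. With the replicate block, the calls gained were those of *Il6st* and *Socs3* with knockdown, *Il6ra* with XAV939, *Il6st* and *Osmr* with IWR-1, and the differences from knockdown of *Lif* with XAV939 (−0.67, adjusted p = 0.0486) and *Il6ra* with IWR-1 (−0.76, adjusted p = 0.0366), and the block changed no other call of a member. Called other pathway genes under the block numbered 26 of 61 with knockdown, where 18.1% of all genes were higher and 16.5% lower. With XAV939 they numbered 23 of 62, where 16% of all genes were higher and 17.4% lower. For the XAV939 difference from knockdown the block called 21 and DESeq2 called 8, and the shares of all genes called there were not counted. Leaving out 1 library each time, the members called ranged from 1 to 3 with knockdown, 2 to 4 with XAV939, 5 to 7 with IWR-1, 4 to 6 between the inhibitors, and 1 to 4 and 5 to 6 for the XAV939 and IWR-1 differences from knockdown. Other pathway genes called ranged in the same order from 1 to 10, 5 to 11, 26 to 33, 15 to 25, 3 to 9 and 20 to 26. The *Lifr* difference of XAV939 from knockdown lost its call with upper-quartile scaling (−0.36), no filter (−0.41) and at least 10 counts in every library (−0.41), and the *Clcf1* difference of IWR-1 with upper-quartile scaling (−0.45) and no filter (−0.48). The cause was not tested. Signs changed only for values that were not called. Leaving out 1 library each time, *Osmr* ranged from −0.10 to 0.074 with knockdown (above 0 without siTnks/2 replicate 1 or 3 or siCtrl replicate 2), from −0.11 to 0.018 with XAV939 (above 0 without XAV939 replicate 1 or DMSO replicate 3), and from −0.14 to 0.045 in the XAV939 difference from knockdown (above 0 without siTnks/2 replicate 2, XAV939 replicate 1 or DMSO replicate 3, and 0.014 with upper-quartile scaling). *Il6st* ranged from −0.32 to 0.10 with XAV939 and from −0.39 to 0.12 in the IWR-1 difference (both above 0 without DMSO replicate 3), and from −0.16 to 0.32 in the XAV939 difference (below 0 without 7 of the libraries). The XAV939 difference of *Socs3* ranged from −0.48 to 0.13, above 0 without siTnks/2 replicate 2. *Il6* had 1 to 3 counts per library in the siRNA table and was not tested there, although those libraries were of similar depth to the drug libraries.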

Other observations

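Levels of 4 STAT3 target genes, chosen after their values were seen, are given for the control libraries of both tables. *Saa3* averaged 18955 CPM in DMSO and 2.48 CPM in siCtrl, *Lcn2* 12616 and 39.1 CPM, *Hp* 748 and 1.20 CPM, and *Ccl2* 631 and 1.87 CPM (n = 3 each). Of the 20 listed targets, some went the other way on average. These were *Ccnd1* (51.2 CPM in DMSO and 352 CPM in siCtrl), *Pim3* (31.7 and 55.3 CPM), *Bcl2l1* (62.2 and 87.9 CPM) and *Myc* (44.3 and 48.2 CPM). All other targets on the list averaged higher in DMSO. Among the members the ratio of DMSO to siCtrl was 8.91 for *Lif*, 8.36 for *Il11* and 4.59 for *Socs3*, between 1.45 and 2.25 for *Osmr*, *Lifr*, *Clcf1*, *Il6st* and *Stat3*, and 0.864 for *Il6ra*. The tables were scaled separately and share no library, so no test was made, and culture, treatment and table cannot be told apart.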
